A study of Mus musculus with 28 samples.

Results

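The MYC network is a family of transcription factors that share the partner MAX, and 10 of its genes, set by name, were followed in mouse colon organoids: the activators *Myc* and *Mycl*, the common partner *Max*, the antagonists *Mxd1*, *Mxd3*, *Mxd4*, *Mxi1* and *Mnt*, and the parallel pair *Mlx* and *Mlxipl*. All 10 were among the 13519 genes of the count table, and all 10 passed the filter on low counts. Colon organoids are cultures of colonic epithelium grown in a gel, here from C57BL/6N mice. Every mouse carried Villin::CreERT2, a Cre recombinase expressed from the *Villin* promoter of intestinal epithelium and activated by 4-hydroxytamoxifen (4-HT), together with *Apc* flox/flox. AC organoids carried nothing further, PAC organoids also carried *Trp53* LSL-R172H/+, BAC organoids also carried *Braf* floxV600E/+, and BPAC organoids carried all of these alleles. Each culture was exposed either to 3.5 µmol/L 4-HT for 24 hours, with RNA taken 3 days later, or to the solvent ethanol (EtOH), under which the same alleles stay unrecombined. All groups shared the Cre and the floxed *Apc* alleles, so loss of *Apc*, Cre activity and exposure to 4-HT cannot be told apart within a genotype. In all, 28 samples were taken from 7 mice (a single mouse for AC, 2 per remaining genotype), and each mouse gave 2 duplicates, grown as distinct passages, under both treatments. Each genotype therefore had 2 (AC) or 4 samples per treatment, and p-values measure the spread between these cultures.

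MYC and MYCL bind DNA as pairs with MAX at a short sequence called the E-box and raise transcription of genes for ribosome assembly, nucleotide synthesis and growth. MXD1, MXD3, MXD4, MXI1 and MNT compete for MAX, bind the same sequence and recruit SIN3 and histone deacetylase corepressors, and MXD1 and MXD4 are best known from cells that leave the cell cycle. MLX is a MAX-like partner of MLXIPL (ChREBP), which responds to glucose metabolites and drives genes of sugar and lipid metabolism. In the intestinal epithelium, *Myc* is a target of Wnt signalling, the pathway that the APC protein holds in check.

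All 10 are protein-coding genes, and they lie on different parts of the genome (GRCm38, GENCODE M21). *Myc* spans chr15:61985391-61990374 and *Mycl* chr4:122995652-123002485. *Max* lies at chr12:76937269-76962201, *Mlx* at chr11:101087277-101092207 and *Mlxipl* at chr5:135089890-135138382. Of the antagonists, *Mxd1* lies at chr6:86647042-86669161, *Mxd3* at chr13:55325168-55329823, *Mxd4* at chr5:34173883-34187720, *Mxi1* at chr19:53310518-53375810 and *Mnt* at chr11:74830920-74845725.

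The E-box was looked up in the promoters of the network's own genes because its members bind this sequence. Promoter windows of RefSeq (GRCm38.p6, 250 bases before to 50 bases after a start site) were at hand for *Mycl*, *Max*, *Mxd1*, *Mxd3*, *Mxd4*, *Mxi1*, *Mnt*, *Mlx* and *Mlxipl*, 12 windows in all. The letters CACGTG, which read the same on both strands, stood in a window of 5 of these 9 genes, compared with 2187 of 27025 genes (8.09%) with a window. Counted by window, 5 of 12 held it, compared with 7.15% of all 32851 windows of the same length. The stretches of 56 bases around each match are given 5′ to 3′ on the gene's strand, with the E-box in capitals. 
Max: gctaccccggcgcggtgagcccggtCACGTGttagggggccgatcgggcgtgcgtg
Mlx: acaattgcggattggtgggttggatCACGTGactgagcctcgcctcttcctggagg
Mlxipl: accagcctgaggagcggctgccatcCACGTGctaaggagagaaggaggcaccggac
Mnt: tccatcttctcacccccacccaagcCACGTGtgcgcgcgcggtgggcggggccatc
Mxd4: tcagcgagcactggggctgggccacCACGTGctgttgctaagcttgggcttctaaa

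The *Max* stretch lies at chr12:76962221-76962276 on the minus strand, and its E-box begins 3 bases before the start site. The *Mlx* stretch lies at chr11:101087225-101087280 on the plus strand and begins its E-box 40 bases upstream. For *Mlxipl* the match belonged to one of its 2 windows, at chr5:135089767-135089822 on the plus strand, 98 bases upstream. The *Mnt* match was 123 bases upstream at chr11:74830776-74830831 on the plus strand, and the *Mxd4* match 219 bases upstream at chr5:34187899-34187954 on the minus strand. *Mycl*, *Mxd1*, *Mxd3* and *Mxi1* held no such letters in their windows. Neither the TCF/LEF letters CTTTGAT nor the AP-1 letters TGANTCA, both searched on both strands, occurred in any of the 12 windows, compared with 3.73% and 7.81% of all windows. A match of letters is a description of the window and was not tested as a binding site.

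Sequencing depth ranged from 20577276 to 40068718 counts per sample. With 4-HT, duplicate 1 of the genotypes with the *Braf* allele was deeper (37438687 to 40068718) than duplicate 1 of those without it (26594188 to 30306835). The epithelial markers were high in every sample, with *Epcam* between 1512 and 3126 counts per 1000000 (CPM) and *Krt8* between 5825 and 11760 CPM, while 0 of 5 fibroblast markers were in the table. Of the altered genes, *Trp53* averaged 57.9 CPM in PAC and 54.3 CPM in BPAC with EtOH, compared with 112 CPM in AC and 110 CPM in BAC, and it stood at 165 to 216 CPM in all genotypes with 4-HT, while *Apc* itself rose by 0.67 to 0.92 on the log2 scale and *Braf* averaged 21.2 to 26.3 CPM over the groups, with a fall in PAC from 26.3 to 21.4 CPM (log2 -0.30, edgeR adjusted p = 0.00798). Without duplicate 1 of both PAC donors the PAC changes were -0.17 for *Braf* and 0.60 for *Apc* (adjusted p = 0.440 and 0.0842). These counts cover whole genes and do not check the recombined exons. The 4-HT samples of duplicate 1 from both PAC donors went against their labels: *Xist* was at 25.2 and 22.0 CPM and the Y-linked *Ddx3y* at 13.8 and 13.0 CPM in the same library, whereas the EtOH cultures of these donors held one or the other (*Xist* at 0.25 and 59.9 CPM, *Ddx3y* at 35.9 and 0 CPM). They were the closest pair of samples within any group, although they differed by more than counting noise (chi-square per gene 2.38, where noise gives 1 and the next pair gave 8.53). Whether these libraries hold RNA of both donors was not tested. They count as 2 of the 4 samples in each PAC value with 4-HT, and the calls of members and the counts of lists in PAC are therefore also given without duplicate 1 of both donors.

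Levels can be compared between genes only per length of transcript, here as CPM per kilobase (kb) of annotated exon. With EtOH, *Mxd1* was the most abundant of the 10 genes, with a median of 82.8 CPM per kb over 14 samples and a range of 61.4 to 171. *Mlx* (median 54.4), *Myc* (42.8) and *Max* (33.2) followed, and the ranges of these neighbours overlapped. The remaining genes lay far lower, from *Mxi1* (9.43) and *Mycl* (7.49) to *Mxd3* (2.69). With 4-HT the order changed: *Myc* came first with a median of 124 CPM per kb, followed by *Mlx* (38.7), *Mxd1* (30.8), *Max* (23.2) and *Mycl* (17.4).

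**Figure D1:**
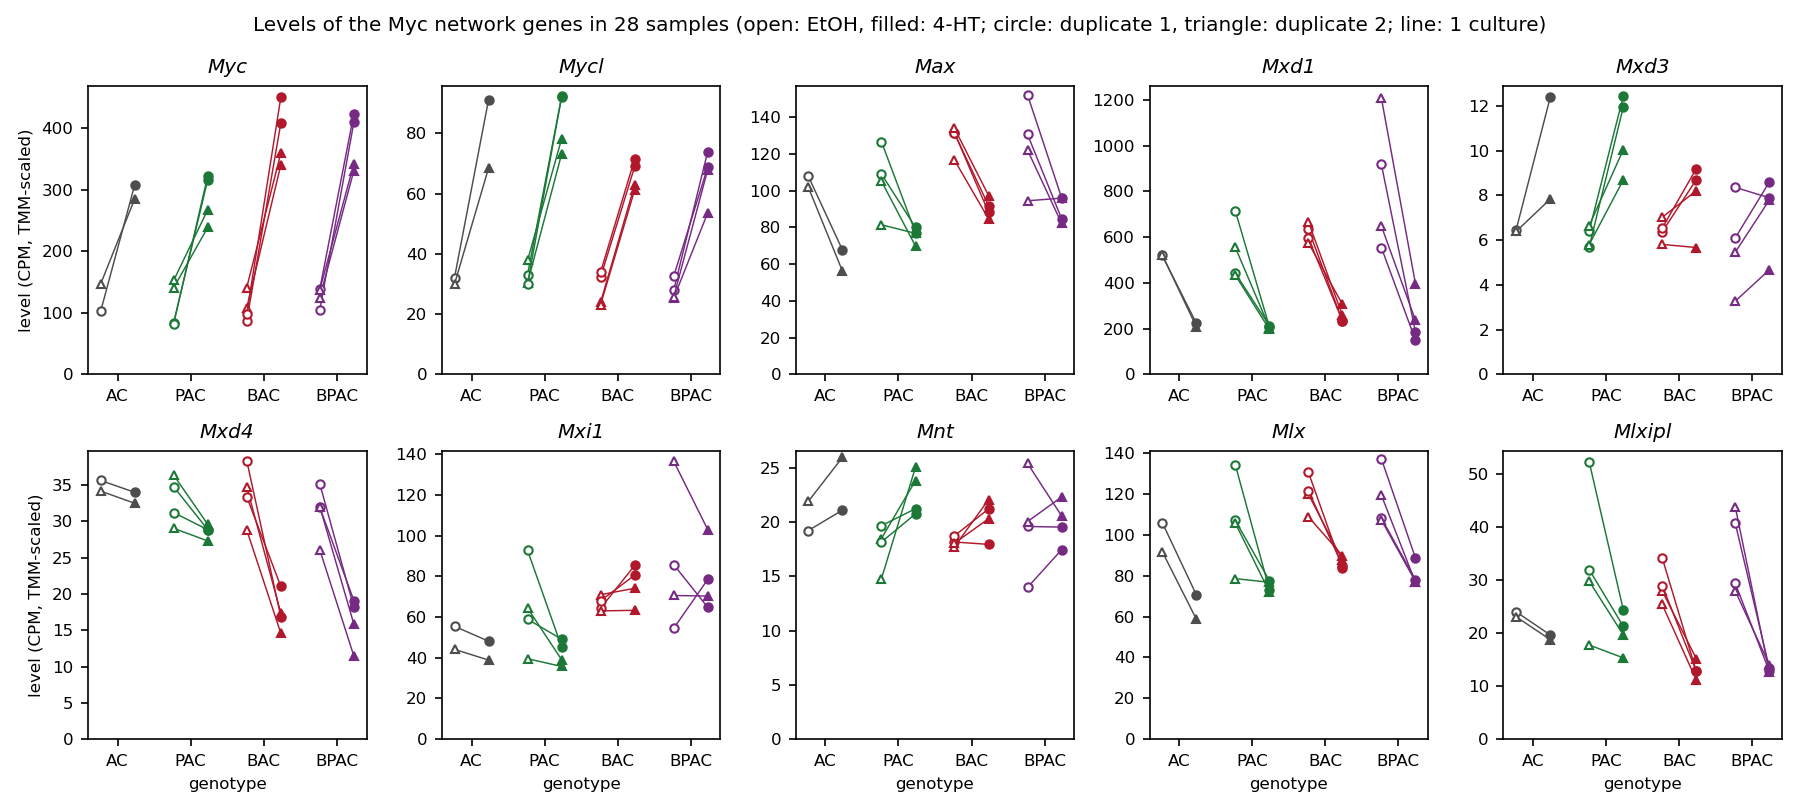
Level in CPM (linear axis from 0) of each MYC network gene in all 28 samples, by genotype. Open symbols are EtOH and filled symbols 4-HT, circles are duplicate 1 and triangles duplicate 2, and a line joins the 2 samples of a culture. Myc and Mycl rise and Mxd1 falls in every culture, while Mxd4 drops in the BAC and BPAC panels, where no 4-HT sample exceeds 21.1 CPM.

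*Myc* encodes the activator that is most often deregulated in colorectal cancer. In AC it stood at 102 and 147 CPM with EtOH and at 308 and 285 CPM with 4-HT. In PAC the EtOH samples were at 84.0, 82.4, 141 and 153 CPM and the 4-HT samples at 317, 323, 239 and 268 CPM. Every 4-HT sample of both genotypes lay above every EtOH sample of its genotype. In BAC the EtOH samples were at 98.0, 86.9, 141 and 108 CPM and the 4-HT samples at 450, 408, 359 and 340 CPM. In BPAC they were at 105, 138, 125 and 137 CPM with EtOH and at 410, 423, 331 and 342 CPM with 4-HT, again without overlap. The quasi-likelihood test of edgeR, with Benjamini-Hochberg adjustment over all 13519 genes, gave a log2 change of 1.25 ± 0.26 (SE) for AC and 1.32 ± 0.18 for PAC (adjusted p = 0.00219 and 1.64e-05). For BAC it gave 1.84 ± 0.19 and for BPAC 1.58 ± 0.19 (adjusted p = 1.86e-08 and 1.27e-07). These amount to levels from 2.38-fold (AC) to 3.59-fold (BAC) higher. Samples of the treatments were equally free of overlap for 57.9% (AC), 32.1% (PAC), 52.1% (BAC) and 44.9% (BPAC) of all genes. With duplicate 1 of both PAC donors left out the PAC change was 0.79 (adjusted p = 0.0310), past 0.05 but no longer past the threshold of 0.01 used here. The AC call was lost when AC was fitted alone (1.23, edgeR adjusted p = 0.0130). With 1 sample per treatment left, the AC change was 0.96 without Col288-1 and 1.59 without Col288-2.

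*Mycl*, a second MYC family activator with a more restricted expression, rose alongside. With EtOH it lay between 23.1 and 37.8 CPM in all 14 samples, and with 4-HT between 53.6 and 92.3 CPM, so the treatments did not overlap in any genotype. Its log2 change was 1.37 ± 0.19 for AC and 1.35 ± 0.13 for PAC, and 1.22 ± 0.13 for BAC and 1.25 ± 0.13 for BPAC. The highest of the 4 adjusted p-values was that of AC (8.32e-05, edgeR with Benjamini-Hochberg adjustment). When duplicate 1 of both PAC donors was left out, *Mycl* was the single member still past the threshold in PAC, at 1.15 (adjusted p = 0.00579).

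*Max* encodes the partner that MYC, MYCL, the MXD proteins and MNT all need. In AC it fell from 108 and 102 CPM to 67.7 and 56.1 CPM. In PAC it was at 109, 127, 81.4 and 105 CPM with EtOH and at 79.9, 77.1, 76.7 and 69.8 CPM with 4-HT. In both genotypes the treatments did not overlap, although by a narrow margin in PAC. In BAC the EtOH samples lay between 117 and 134 CPM and the 4-HT samples between 84.6 and 97.3 CPM. In BPAC the EtOH samples were at 152, 131, 94.4 and 122 CPM and the 4-HT samples at 96.1, 84.7, 95.8 and 82.1 CPM, and the treatments overlapped because of duplicate 2 of donor Col287. The log2 change was -0.76 ± 0.17 for AC, -0.48 ± 0.12 for PAC, -0.50 ± 0.12 for BAC and -0.48 ± 0.12 for BPAC (edgeR, adjusted p = 0.00364, 0.00316, 0.000969 and 0.00148). Leaving out duplicate 1 of both PAC donors gave -0.35 in PAC (adjusted p = 0.197). The BPAC call was lost without Col287-1, Col312-1 or Col312-2 (adjusted p = 0.0130, 0.0151 and 0.0114). The PAC call was lost without Col290-1, Col313-1 or Col313-2 (edgeR, adjusted p = 0.0163, 0.0392 and 0.0214). With each genotype fitted alone, the AC, PAC and BPAC calls were lost (adjusted p = 0.0179, 0.0153 and 0.0227). With 1 AC sample per treatment left, the AC change was -0.86 without Col288-1 and -0.67 without Col288-2.

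*Mlx*, the MAX-like partner of MLXIPL, ran in parallel with *Max*. With EtOH it lay between 78.7 and 137 CPM and with 4-HT between 58.8 and 90.0 CPM, and within each genotype every 4-HT sample was below every EtOH sample. The log2 change was -0.51 ± 0.11 in PAC, -0.48 ± 0.11 in BAC and -0.56 ± 0.11 in BPAC (edgeR, adjusted p = 0.00116, 0.000964 and 0.000169). In AC it was -0.61 ± 0.16 with an adjusted p of 0.0102, just outside the threshold, and 0.00368 with the culture as a replicate block. In PAC it was -0.31 without duplicate 1 of both donors (adjusted p = 0.186). *Mlx* overlaps *Psmc3ip* on the opposite strand, and whether reads were counted by strand is not given in the sources used here.

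*Mxd1* encodes an antagonist that competes with MYC for MAX, and it was the member with the largest fall. In AC it stood at 520 and 523 CPM with EtOH and at 223 and 208 CPM with 4-HT. In PAC the EtOH samples were at 442, 715, 434 and 556 CPM and the 4-HT samples at 213, 208, 196 and 204 CPM. The PAC 4-HT samples lay much closer together than the EtOH samples. In BAC the values were 596, 636, 576 and 668 CPM with EtOH and 234, 233, 306 and 257 CPM with 4-HT. In BPAC they were 919, 554, 1209 and 649 CPM with EtOH and 184, 150, 396 and 236 CPM with 4-HT. No 4-HT sample reached an EtOH sample of any genotype, and duplicate 2 of donor Col287 was the highest under both treatments. The log2 change was -1.27 ± 0.33 for AC and -1.39 ± 0.23 for PAC (edgeR, adjusted p = 0.00957 and 9.06e-05). For BAC it was -1.26 ± 0.23 and for BPAC -1.79 ± 0.23 (adjusted p = 6.64e-05 and 6.62e-07). The PAC value without duplicate 1 of both donors was -1.31 (adjusted p = 0.0316). The AC call rested on both cultures, with an adjusted p of 0.159 without duplicate 1 and 0.165 without duplicate 2. It was also lost with counts thinned to the smallest total (0.0106), with donor sums (0.0457) and when duplicate 1 of both PAC donors was left out of the shared fit (0.0127).

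The other antagonists shared no common direction. *Mxd3*, which is known from cycling cells, was the least abundant member, with 81 to 412 counts per sample. It lay between 5.69 and 6.65 CPM in PAC with EtOH and between 8.69 and 12.4 CPM with 4-HT, a log2 change of 0.81 ± 0.22 (edgeR, adjusted p = 0.00534). Left without duplicate 1 of both donors, it was 0.59 (adjusted p = 0.279). The call was also lost without any 1 of the 4 PAC cultures (edgeR, adjusted p = 0.0121 to 0.0476). With the PAC 4-HT duplicate 1 samples summed it was 0.75 (adjusted p = 0.0190). The changes of 0.66 ± 0.31 for AC, 0.31 ± 0.22 for BAC and 0.33 ± 0.22 for BPAC did not pass (adjusted p = 0.149, 0.240 and 0.210). *Mxd3* overlaps *Prelid1* on the opposite strand, so its reads may not be separable from those of that gene. *Mxi1* (MXD2) lay between 39.5 and 137 CPM with EtOH and between 35.7 and 103 CPM with 4-HT, and the treatments overlapped in all 4 genotypes. Its log2 change was -0.19 ± 0.32 for AC, -0.60 ± 0.23 for PAC, 0.19 ± 0.22 for BAC and -0.14 ± 0.22 for BPAC (edgeR, adjusted p = 0.737, 0.0407, 0.495 and 0.624), and with library size alone it was 0.026 in AC and 0.090 in BPAC. With the culture as a replicate block the PAC value was -0.55 (adjusted p = 0.00572), although this block takes the labels of the PAC duplicate 1 samples as given, and without duplicate 1 of both donors it was -0.48 (adjusted p = 0.342, no block). *Mnt*, the broadly expressed antagonist of this network, kept within 14.0 to 26.0 CPM in all 28 samples, and its log2 change ranged from 0.01 ± 0.13 in BPAC to 0.35 ± 0.13 in PAC (edgeR, adjusted p = 0.940 and 0.0380), the latter at 0.56 without duplicate 1 of both donors (adjusted p = 0.0862).

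Counting the members past the threshold, 2 rose and 2 fell in AC, where 7.25% of all genes were called. In PAC 3 rose and 3 fell, with 23.4% of all genes called, and without duplicate 1 of both PAC donors 1 of the 10 passed, while with their 4-HT samples summed into 1 sample 5 passed. In BAC 2 rose and 5 fell with 41.9% of all genes called, and in BPAC 2 rose and 5 fell with 45% called. *Myc*, *Mycl*, *Max* and *Mxd1* passed with TMM factors in all 4 genotypes, *Mlx* in PAC, BAC and BPAC, *Mxd3* in PAC, and *Mxd4* and *Mlxipl* in BAC and BPAC. The AC count fell to 0 without duplicate 1 and to 1 without duplicate 2, where 1 sample per treatment remained in that genotype and was assumed to vary like the other groups. The scaling between samples also mattered for the background: with library size alone in place of TMM factors, the median change of all genes shifted from between -0.04 and 0.01 to between 0.13 and 0.23 on the log2 scale. Calls up against down over all genes moved from 406 and 574 to 1511 and 302 in AC, from 1511 and 1655 to 3388 and 737 in PAC, from 2751 and 2909 to 3881 and 2066 in BAC, and from 2979 and 3110 to 4331 and 2038 in BPAC. The direction of each called member was the same under both scalings, but not each call. With library size alone *Max* was not called in any genotype (-0.54, -0.25, -0.34 and -0.26 for AC, PAC, BAC and BPAC, edgeR adjusted p = 0.0290, 0.107, 0.0250 and 0.0733). *Mlx* was then not called in PAC, BAC and BPAC (adjusted p = 0.0437, 0.0236 and 0.0115) nor *Mxd1* in AC (adjusted p = 0.0173), while *Mnt* was called in PAC (0.58, adjusted p = 0.00127). Leaving out any 1 culture gave 3 to 5 members in PAC, 6 to 7 in BAC and 6 to 7 in BPAC.

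**Figure D2:**
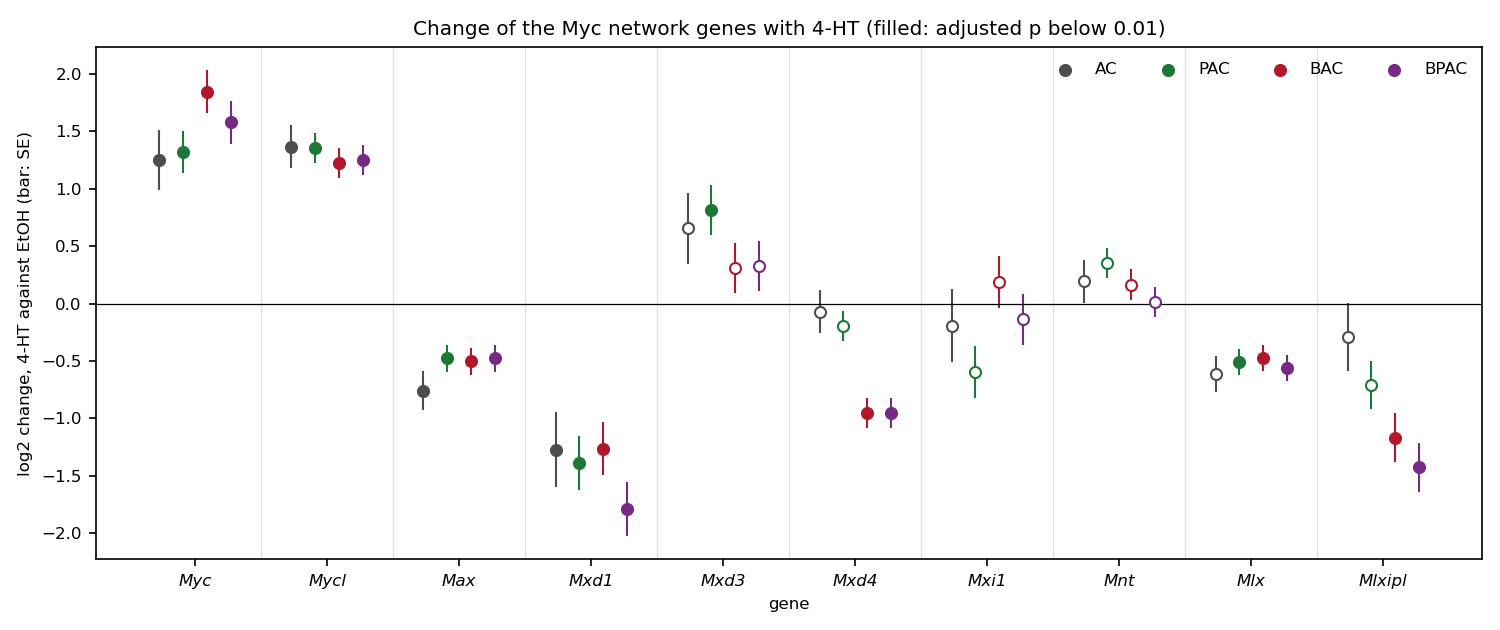
Log2 change with 4-HT against EtOH (y axis) for the 10 genes (x axis) in AC, PAC, BAC and BPAC, with bars for the SE from edgeR. Filled points passed an adjusted p of 0.01. Myc and Mycl lie above 1 in all genotypes, Mxd1 lies below -1 in all, and Mxd4 passes in BAC (-0.95) and BPAC (-0.95) but not in AC (-0.07) or PAC (-0.20).

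The rise of *Myc* and the fall of *Mxd1* can be read within a sample, where no scaling between samples enters. The ratio of *Myc* to *Mxd1* reads per kb was between 0.268 and 0.842 in the 14 EtOH samples (median 0.503), so *Mxd1* exceeded *Myc* in each of them. In the 14 samples with 4-HT it was between 2.18 and 7.36 (median 3.69), and *Myc* exceeded *Mxd1* in each. The group means with 4-HT were 3.58 ± 0.016 in AC (SD, n = 2), 3.63 ± 0.405 in PAC (n = 4), 4.02 ± 0.919 in BAC (n = 4) and 4.78 ± 2.27 in BPAC (n = 4), and their ranges overlapped. The lowest 4-HT value was that of duplicate 2 of the BPAC donor Col287, the culture with the highest *Mxd1*. The ratio of *Myc* to *Max* went from between 0.861 and 2.29 to between 4.13 and 6.77, also without overlap. The ratio of *Mxd1* to *Max* went from between 2.06 and 6.51 to between 0.899 and 2.10, so the treatments overlapped narrowly. The PAC 4-HT duplicate 1 samples, at 3.88 and 4.04 for *Myc* to *Mxd1*, lay inside the ranges over all 14 samples with 4-HT. They set none of the ends of those ranges, although 4.04 was the highest value of the PAC group. RNA ratios do not give the ratio of the proteins.

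**Figure D3:**
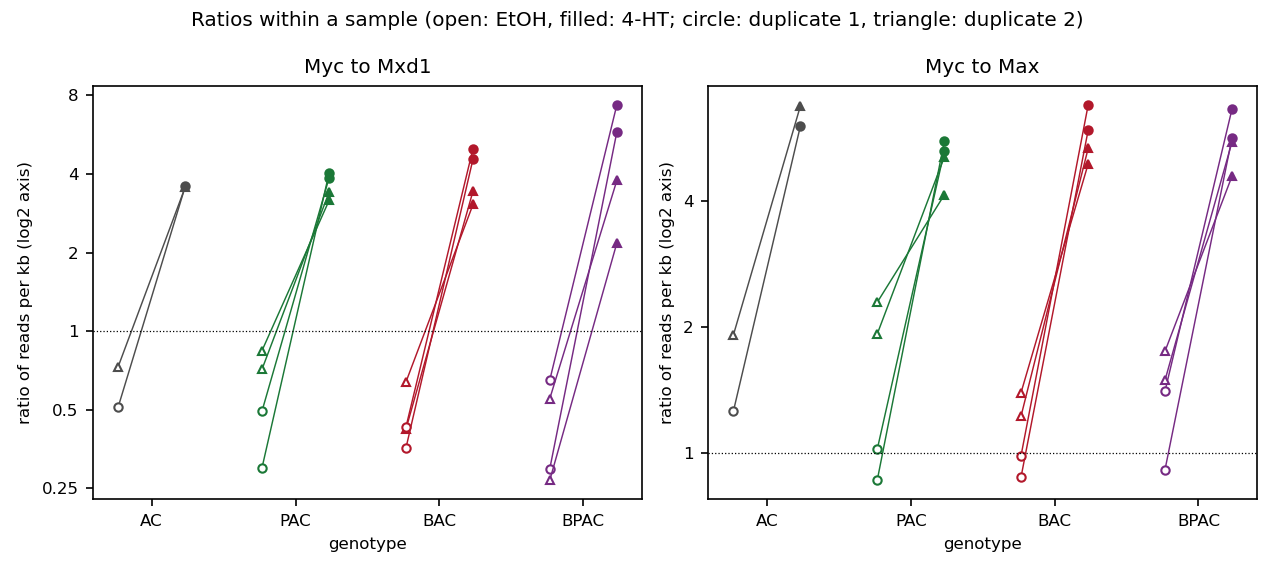
Ratio of Myc to Mxd1 (left) and of Myc to Max (right) reads per kb in each of the 28 samples, on a log2 axis, by genotype. Open symbols are EtOH, filled symbols 4-HT, circles duplicate 1, triangles duplicate 2, and the dotted line marks equal levels. All EtOH samples lie below 1 for Myc to Mxd1 and all 4-HT samples lie above 2.

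The 4-HT response of *Mxd4* differed with the *Braf* allele, and that of *Mlxipl* did so under some of the fits. *Mxd4* encodes an antagonist linked to the exit from proliferation. It stood at 35.6 and 34.2 CPM with EtOH and at 34.0 and 32.5 CPM with 4-HT in AC. In PAC it was at 34.8, 31.2, 36.4 and 29.1 CPM with EtOH and at 28.9, 28.9, 29.6 and 27.3 CPM with 4-HT. The log2 changes of -0.07 ± 0.19 in AC and -0.20 ± 0.13 in PAC did not pass (edgeR, adjusted p = 0.849 and 0.250), and with library size alone they were 0.15 and 0.028. The PAC value without duplicate 1 of both donors was -0.20 (adjusted p = 0.573). In BAC it went from 33.4, 38.4, 28.8 and 34.8 CPM to 21.1, 16.9, 14.6 and 17.4 CPM. In BPAC it went from 31.9, 35.2, 26.1 and 32.1 CPM to 19.1, 18.2, 11.4 and 15.8 CPM. Every 4-HT sample with the *Braf* allele lay below every other sample of the series, and the log2 change was -0.95 ± 0.13 in BAC and -0.95 ± 0.13 in BPAC (edgeR, adjusted p = 1.97e-06 and 1.57e-06).

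The difference of the *Mxd4* change with the *Braf* allele (mean of BAC and BPAC minus mean of AC and PAC) was itself tested and was -0.82 ± 0.15 on the log2 scale (edgeR, adjusted p = 0.000592). The 8 cultures with the allele changed by -1.18 to -0.66 and the 6 without it by -0.30 to -0.07, without overlap, which held for 9.36% of all genes. Within duplicate 1 alone the difference was -0.75 (adjusted p = 0.00838) and within duplicate 2 alone -0.90 (adjusted p = 0.0677). The difference without duplicate 1 of both PAC donors was -0.82 (adjusted p = 0.00386). *Mxd4* was the 1 member of 10 past the threshold in this comparison, in which 6.61% of all genes were called.

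*Mlxipl*, the glucose-responsive activator that pairs with MLX, was measured in all 28 samples. In AC it was at 24.0 and 23.0 CPM with EtOH and at 19.6 and 18.7 CPM with 4-HT. In PAC the EtOH samples spread from 17.7 to 52.2 CPM and the 4-HT samples from 15.3 to 24.4 CPM, with overlap. The change was -0.29 ± 0.30 in AC and -0.71 ± 0.21 in PAC (edgeR, adjusted p = 0.552 and 0.0103), and with the culture as a replicate block PAC passed at -0.63 (adjusted p = 0.00125). That block takes the labels of the PAC duplicate 1 samples as given, and without duplicate 1 of both donors the PAC change was -0.44 (adjusted p = 0.235, no block). In BAC *Mlxipl* went from 28.9, 34.1, 25.3 and 27.9 CPM to 12.8, 12.7, 11.1 and 15.1 CPM. In BPAC it went from 40.7, 29.3, 43.7 and 27.9 CPM to 13.4, 12.8, 12.6 and 14.0 CPM. No 4-HT sample of these 2 genotypes reached an EtOH sample, and the log2 change was -1.17 ± 0.21 in BAC and -1.43 ± 0.21 in BPAC (edgeR, adjusted p = 6.08e-05 and 3.96e-06). The difference with the *Braf* allele was -0.80 ± 0.23 (adjusted p = 0.0231). Under the replicate block this became -0.82 (adjusted p = 0.00110), which made 2 of 10 members called against 14% of all genes under that fit. The alternative without duplicate 1 of both PAC donors also passed, at -0.93 (adjusted p = 0.00343).

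For *Myc* the difference of change with the *Braf* allele was 0.42 ± 0.20 (edgeR, adjusted p = 0.167) and did not pass. Without duplicate 1 of both PAC donors it was 0.69 (adjusted p = 0.0115). Compared among the 4-HT samples themselves, the 8 samples with the allele lay between 331 and 450 CPM and the 6 without it between 239 and 323 CPM. The ranges did not overlap, as for 21.1% of all genes, and the difference in level was 0.39 ± 0.14 (adjusted p = 0.0302), not past the threshold. It passed within duplicate 1 alone (0.43, adjusted p = 0.00606) and without duplicate 1 of both PAC donors (0.48, adjusted p = 0.00396), and within duplicate 2 alone it was 0.35 (adjusted p = 0.0386). In the order of *Myc* group means, BAC (390 ± 49.6 CPM, SD, n = 4) and BPAC (377 ± 46.5, n = 4) came first and overlapped. AC (297 ± 16.2, n = 2) and PAC (287 ± 40.1, n = 4) followed and overlapped with each other.

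**Figure D4:**
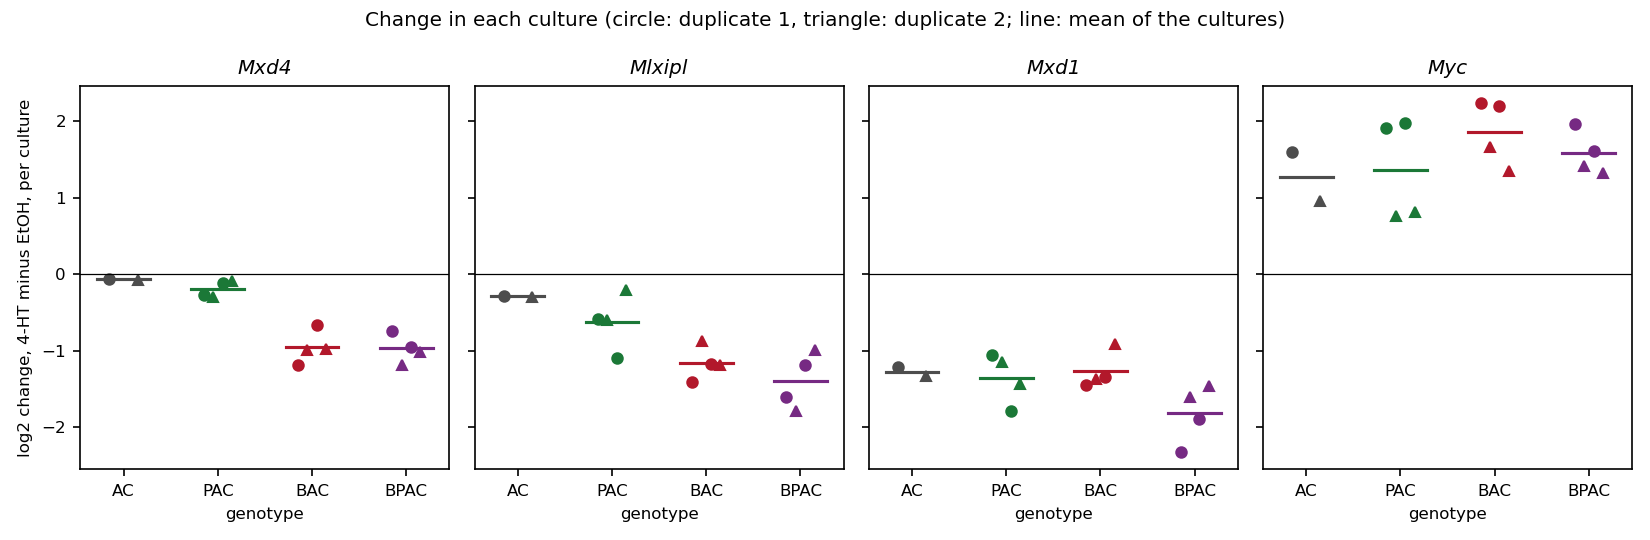
Log2 change (4-HT minus EtOH, y axis) in each culture for Mxd4, Mlxipl, Mxd1 and Myc, by genotype. Circles are duplicate 1, triangles duplicate 2, and lines the mean of the cultures. For Mxd4 the 8 BAC and BPAC cultures lie below the 6 AC and PAC cultures, and for Myc the circles lie above the triangles of the same donor.

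With 4-HT, 4 members differed in level with the *Braf* allele, and 30.2% of all genes did. This comparison, like that of the *Myc* level above, set different mice against each other (a single AC mouse, 2 per remaining genotype). Both duplicates of a mouse entered as samples, and allele and mouse cannot be told apart. *Mxd4* differed by -0.88 ± 0.10 and *Mlxipl* by -0.59 ± 0.16 on the log2 scale, both lower with the allele (edgeR, adjusted p = 5.23e-07 and 0.00541). *Max* was higher by 0.39 ± 0.10 and *Mxi1* by 0.85 ± 0.18 (adjusted p = 0.00180 and 0.000589). The call of *Mlxipl* was lost in 7 of the 14 fits that left out 1 culture (adjusted p up to 0.0286, without Col288-1), with duplicate 2 alone (-0.45, adjusted p = 0.151) and with the PAC 4-HT duplicate 1 samples summed (-0.56, adjusted p = 0.0110). Those of *Max* and *Mxi1* were lost without AC Col288-2 (0.33 and 0.78, adjusted p = 0.0311 and 0.0110) and with duplicate 2 alone (adjusted p = 0.0247 and 0.0157), and that of *Max* also with duplicate 1 alone (adjusted p = 0.0101). For *Max*, the 4-HT samples lay between 82.1 and 97.3 CPM with the allele and between 56.1 and 79.9 CPM without it. For *Mxi1* they lay between 63.3 and 103 CPM with it and between 35.7 and 49.1 CPM without it. Neither pair of ranges overlapped, but the EtOH samples of these genotypes differed in the same direction, by 0.27 ± 0.09 for *Max* and 0.43 ± 0.18 for *Mxi1* (adjusted p = 0.166 and 0.224), and the change with 4-HT was not shown to differ with the allele for either gene (adjusted p = 0.571 and 0.280). None of the 10 members differed in level among the EtOH samples in edgeR at the threshold, nor by DESeq2, with 0.0296% of all genes called. At an unadjusted p below 0.05, 4 of the 10 did (*Max*, *Mxd1*, *Mxi1* and *Mlx*, all higher with the allele).

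The *Trp53* allele left no member past the threshold in the difference of change (mean of PAC and BPAC minus mean of AC and BAC), and 0.0148% of all genes passed. Estimates ranged from -0.36 ± 0.25 for *Mxi1* to 0.16 ± 0.13 for *Max*, with -0.10 ± 0.20 for *Myc*, -0.32 ± 0.25 for *Mxd1* and -0.34 ± 0.23 for *Mlxipl*, all at an adjusted p of 1.00 in edgeR. At an unadjusted p below 0.05, 0 of the 10 passed, and DESeq2 called none at the threshold.

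The duplicates differed in the size of the *Myc* response, and the labels do not say which passage a duplicate number stands for. The log2 change averaged 1.93 over the duplicate 1 cultures and 1.18 over the duplicate 2 cultures, and it was larger in duplicate 1 in 7 of 7 donors. The difference, 0.73 ± 0.10, passed in edgeR (adjusted p = 0.00554), as for 0.0592% of all genes, and no other member passed. Without the PAC samples it was 0.60 ± 0.14 (adjusted p = 0.646), and 0.0074% of all genes passed. The duplicates were not tested within a single treatment. With EtOH, duplicate 1 lay between 82.4 and 138 CPM and duplicate 2 between 108 and 153 CPM. In donor Col312 duplicate 1 was not the lower one with EtOH (138 and 137 CPM). With 4-HT the duplicates lay between 308 and 450 and between 239 and 359 CPM. These ranges overlapped under both treatments. The *Myc* change was at least 0.77 in each of the 14 cultures.

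Genes that work with the network were taken as lists and are described by counts. Of 63 MYC target genes, many of ribosome assembly, 62 were in the table, and the number that rose was 22 for AC, 46 for PAC, 53 for BAC and 55 for BPAC. All genes rose in 3%, 11.2%, 20.3% and 22% of cases in these comparisons. The median log2 change of the list was 0.60, 0.64, 0.92 and 0.96, compared with -0.04 to 0.01 for all genes. The largest changes past the threshold in BPAC were those of *Srm*, the spermidine synthase (1.61), *Cad*, which starts pyrimidine synthesis (1.51), the replication helicase subunit *Mcm4* (1.41) and the nucleolar *Mybbp1a* (1.35). Without the block the single listed gene that fell was *Sord*, sorbitol dehydrogenase, at -0.52 in BAC and -0.46 in BPAC, and with library size alone none fell in BPAC. With the block 2 fell in PAC, *Sord* and the lactate dehydrogenase gene *Ldha*. The change was larger with the *Braf* allele for 11 of the 62, compared with 3.05% of all genes, and for 23 with the replicate block, compared with 6.51%. Without duplicate 1 of both PAC donors the PAC count was 1. The AC count was 0 when either AC culture was left out, 37 with the replicate block (7.45% of all genes) and 46 with library size alone (11.2%).

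Genes whose proteins work with MYC followed the same direction in part. Of 16 cofactors, 3, 5, 8 and 6 rose in AC, PAC, BAC and BPAC, where 3%, 11.2%, 20.3% and 22% of all genes rose, led in BPAC by the helicases *Ruvbl1* (1.33) and *Ruvbl2* (1.19), the acetyltransferase *Kat2a* (1.01) and the chromatin subunit *Actl6a* (0.87). The AC count was 0 without either AC culture. *Bin1* fell in BPAC (-0.44), a call lost without duplicate 1 of both PAC donors and with library size alone, and with the block 1 cofactor fell in AC, 1 in PAC and 1 in BPAC. Of 10 corepressor genes that serve the MXD proteins and MNT, 1, 4, 5 and 5 rose against the same shares and none fell in edgeR without the block (1, 1 and 2 fell in PAC, BAC and BPAC with it), with *Sap30* (1.01) and the deacetylase *Hdac2* (0.99) first in BPAC. Among 16 genes that act on the stability of the MYC protein, none passed in AC in edgeR without the block. There 5 had an unadjusted p below 0.05, with 1 called in DESeq2, 2 with the replicate block, 2 with library size alone and 1 without duplicate 1 of both PAC donors. In PAC 3 stability genes rose (11.2% of all genes). In BAC 6 rose and 1 fell (20.3% and 21.5% of all genes), and in BPAC 6 rose and 3 fell (22% and 23% of all genes). With the block 4 rose and 2 fell in PAC, where 16.5% of all genes rose and 18.4% fell. The largest changes in BPAC were those of the F-box genes *Fbxo32* (-1.95) and *Skp2* (1.30), the kinase *Aurka* (1.13) and *Cip2a*, an inhibitor of phosphatase 2A (1.07). The 7 further network genes *Mycn*, *Mga*, *Mlxip*, *Zbtb17*, *Usf1*, *Usf2* and *Bhlhe40* gave no call in edgeR without the block. At an unadjusted p below 0.05, 4 of these 28 edgeR tests passed, and DESeq2 called none. With the replicate block 1 of the 7 rose in BAC, and with library size alone 3 rose in PAC. With the replicate block the cofactors that rose were 8 in PAC (16.5% of all genes) and 10 in BPAC (26.7%), and the corepressors 5 in AC. Without duplicate 1 of both PAC donors no cofactor, corepressor or stability gene passed in PAC. With library size alone the counts that rose in AC, PAC, BAC and BPAC were 5, 10, 11 and 10 for cofactors, 5, 7, 6 and 7 for corepressors, and 2, 7, 8 and 9 for stability genes, where 11.2%, 25.1%, 28.7% and 32% of all genes rose.

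Of 14 genes known as targets of MLXIPL and MLXIP, 7 fell in PAC, 6 fell and 3 rose in BAC, and 7 fell and 2 rose in BPAC. All genes fell in 12.2%, 21.5% and 23% of cases. In AC none passed in edgeR, with 4.25% of all genes falling, although 10 had an unadjusted p below 0.05, DESeq2 called 3 and 5 fell with the replicate block (8.99% of all genes). Among those that fell in BPAC were *Khk*, the ketohexokinase of fructose metabolism (-1.76), *Tkfc* (-1.51), and *Txnip*, an inhibitor of glucose uptake (-1.31). Those that rose in BPAC were the lipid synthesis genes *Acly* (0.71) and *Fasn* (0.61). The shares that rose, 3 of 14 in BAC and 2 of 14 in BPAC, were near or below those of all genes (20.3% and 22%). In PAC none passed without duplicate 1 of both donors, and with library size alone 4 fell and 2 rose (5.45% and 25.1% of all genes).

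**Figure D5:**
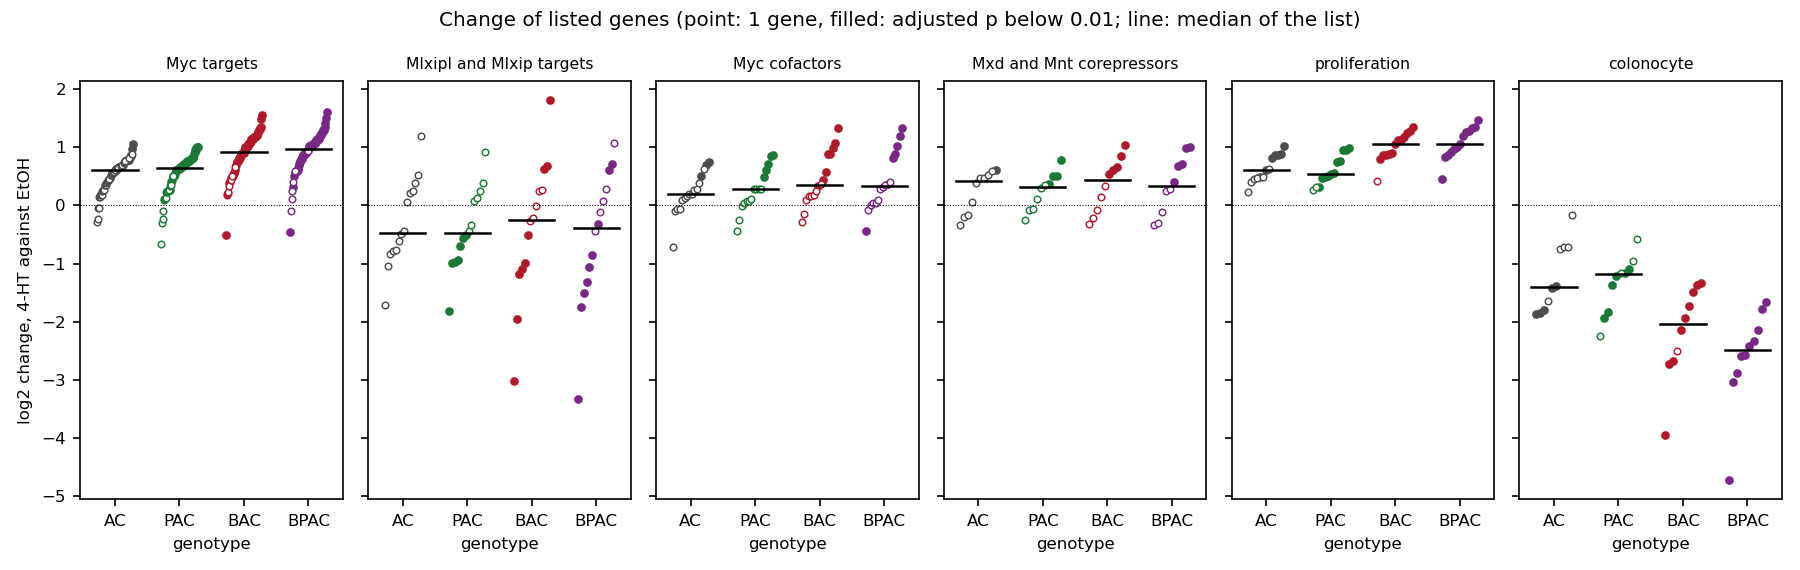
Log2 change with 4-HT against EtOH (y axis) of single genes (points) of 6 lists, by genotype, with a line at the median of each list. Filled points passed an adjusted p of 0.01. MYC targets and proliferation genes lie mostly above 0, colonocyte markers below 0, and the targets of MLXIPL and MLXIP on both sides.

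Markers of the cell state moved with these genes. Of 13 proliferation genes, 7, 11, 12 and 13 rose in AC, PAC, BAC and BPAC (3%, 11.2%, 20.3% and 22% of all genes), with a median log2 change of 0.61, 0.53, 1.05 and 1.06. The AC count was 11 with the replicate block or with library size alone and 0 without either AC culture, and the PAC count was 0 without duplicate 1 of both PAC donors. Of 10 markers of differentiated colonocytes, 5, 6, 9 and 10 fell (4.25%, 12.2%, 21.5% and 23% of all genes), with a median of -1.41, -1.19, -2.04 and -2.49. The AC count was 0 without either AC culture, and the PAC count was 0 without duplicate 1 of both PAC donors and 5 with their 4-HT samples summed. Their summed level was 19787 to 29891 CPM in the EtOH samples and 3478 to 13870 CPM in the 4-HT samples. *Lgr5* and *Ascl2* were both up by 2.30 in BPAC, the highest change among 6 stem cell markers there. Of these 6, 3, 5, 4 and 6 rose (3%, 11.2%, 20.3% and 22% of all genes), with a median log2 change of 1.08, 1.09, 0.80 and 0.93. This count was 0 to 1 in AC without either culture, 5 in AC with the replicate block or with library size alone, and 1 in PAC without duplicate 1 of both PAC donors. Of 8 markers of the epithelium itself, 2, 4 and 4 fell in PAC, BAC and BPAC (12.2%, 21.5% and 23% of all genes), with a median log2 change of -0.25, -0.35 and -0.46. Those that fell in BPAC were *Vil1* (-0.95), *Epcam* (-0.74), the cadherin *Cdh1* (-0.64) and the transcription factor gene *Cdx1* (-0.47). In AC none passed in edgeR (2 at an unadjusted p below 0.05 and 2 called by DESeq2), and 2 fell with the replicate block. With the block 6 fell and 1 rose in BPAC, with library size alone 3 fell and 1 rose there, and without duplicate 1 of both PAC donors none fell in PAC. In bulk RNA fewer cells of a type and less RNA per cell cannot be told apart, and the part of these markers in the changes of *Mxd1*, *Mxd4*, *Mlxipl* and *Myc* was not tested. In duplicate 2 of the BPAC donor Col287, where *Mxd1* was highest with EtOH, the colonocyte sum was 23028 CPM, inside the range of the other EtOH samples.

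The genes most like *Myc* across the 28 samples were found by Pearson's r of log2 CPM, as a description with no test, since all samples share the same contrast of treatments. *Nop56*, a nucleolar protein gene, came first (r = 0.98), followed by *Uspl1* (0.97), *Bzw2* (0.97), the Wnt receptor gene *Fzd9* (0.97) and the tubulin gene *Tubb5* (0.97). *Nop56* is also one of the listed MYC targets. Among the members, *Mycl* had an r of 0.87 with *Myc*, and *Mlxipl* and *Mxd1* had -0.87 and -0.86. Over the changes of the 14 cultures, where the common shift with treatment drops out, these were 0.18, -0.54 and -0.31. For *Mxd1* the genes most like it were the phosphatase *Ptprh* (r = 0.99), *Rflnb* (0.98), the ligand gene *Bmp2* (0.98), *Cyp4f16* (0.97) and *Hsd17b2* (0.97), all of which had a negative change in each genotype.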

How the data were processed

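RNA was sequenced from 28 colon organoid samples, and the authors deposited a table of read counts per gene (whole numbers, not normalized). Per the submitters' processing notes, reads were trimmed with Trimmomatic 0.39 and aligned with STAR 2.5.2b. The counting tool, its annotation and its strand setting are not given in the sources used here. Gene names, exon lengths and positions were taken from GENCODE M21 (GRCm38).

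Counts were tested with edgeR 4.0.16 in R 4.3.3 (glmQLFit and glmQLFTest, TMM factors, limma 3.58.1 for voom, DESeq2 1.42.0) in 1 fit of all 8 groups, which share 1 estimate of the spread (common biological coefficient of variation 0.191). P-values were adjusted over all 13519 genes by Benjamini-Hochberg, with a threshold of 0.01, and all genes passed the filter on low counts. Comparisons were 4-HT against EtOH within each genotype, the difference of that change with the *Braf* or *Trp53* allele, and levels with and without the *Braf* allele within a treatment. CPM used TMM-scaled totals, and log2 CPM of single cultures a prior count of 2. The members had 81 to 29931 counts per sample.

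EtOH and 4-HT samples of the same donor and duplicate number were taken as 1 culture, which the labels do not state. Their deviations from the group means correlated in 12 of 12 cultures outside AC (r from 0.245 to 0.532, mean 0.416). The mean was -0.059 for the other culture of the donor. The fit with the culture as a block was an alternative. Donors were not independent of duplicates, since each mouse gave 2 passages, and donor sums were another alternative. One label of a BAC 4-HT sample gave no duplicate number and was taken as 1. The other alternatives were DESeq2, limma-voom, other scalings, other filters, single genotypes, single duplicates, thinned counts and leaving out each culture. After seeing the data, the duplicate number as a covariate, the difference between duplicates, and the sum of the PAC 4-HT duplicate 1 samples were added. The members and lists were chosen with earlier results of these data known. All 10 members are named, and of each list at most 4 genes, those with the largest change in BPAC past the threshold, and the 5 genes most like *Myc* and *Mxd1* by Pearson's r. One gene that this rule selects is not reported here. *Sord*, *Ldha*, *Bin1*, *Acly*, *Fasn*, *Lgr5* and *Ascl2* were added after their values were seen. The fits were tested on simulated data.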

Additional observations from a re-analysis of the deposited data

Results flagged for a closer look

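In 5 of 90 groups of 4 samples or cultures, one value lay past Dixon's 95% critical value, and chance flags about 1 in 20 groups. *Max* in BAC with EtOH was lowest at 117 CPM in duplicate 2 of donor Col286, apart from the other 3 samples. The *Max* change in BPAC was highest at 0.021 on the log2 scale in duplicate 2 of donor Col287, where the other 3 cultures fell. *Mxd3* in BPAC with 4-HT was lowest at 4.67 CPM in that same culture. The *Mxd3* change in BPAC was lowest at -0.082 in duplicate 1 of donor Col312. *Mlx* in BPAC with 4-HT was highest at 88.8 CPM in duplicate 1 of donor Col287.

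Effects that differed between groups by a test of the difference were found for 2 members. The *Myc* change was larger by 0.73 on the log2 scale in duplicate 1 than in duplicate 2, a comparison added after seeing the data, and without the PAC samples it did not pass (0.60, edgeR adjusted p = 0.646). The *Mxd4* change was lower by -0.82 with the *Braf* allele than without it.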

How the results depend on the processing

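Over the 4 genotype comparisons, the change with the *Braf* allele and the 4-HT level with it, of the values of single members under each alternative 1169 kept their direction and their side of the threshold, 73 lost the threshold, 32 gained it and 16 changed sign. The number of members called in AC (4) was 2 with library size alone, 2 with each genotype alone, 0 with duplicate 2 alone, and 0 to 1 when 1 culture was left out. In PAC (6) it was 0 with duplicate 2 alone, 1 without duplicate 1 of both PAC donors, and 3 to 5 when 1 culture was left out (3 without Col313-1). In BAC (7) it was 3 with duplicate 2 alone and 6 to 7 with 1 culture left out, as in BPAC (6 to 7). For the change with the *Braf* allele (1) it was 2 with DESeq2, with the replicate block, without duplicate 1 of both PAC donors and at an adjusted p of 0.05, 0 with duplicate 2 alone, and 1 to 2 with 1 culture left out. For the 4-HT level with the *Braf* allele (4) it was 1 with duplicate 2 alone, 7 with the duplicate number as a covariate, 8 at an adjusted p of 0.05, and 2 to 5 with 1 culture left out (2 without AC Col288-2). The EtOH level and the *Trp53* comparison stayed at 0 with any 1 culture left out. The cause of these shifts was not tested, and some settings also had fewer samples.

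Estimates that changed sign were those of members not past the threshold. With library size alone they were 0.15 (*Mxd4*, AC), 0.026 (*Mxi1*, AC), 0.028 (*Mxd4*, PAC) and 0.090 (*Mxi1*, BPAC). *Mxi1* in BPAC was 0.022 with duplicate 1 alone and -0.30 to 0.019 when 1 culture was left out (0.019 without Col287-2). *Mnt* in BPAC was -0.023 at a mean CPM of at least 5, -0.084 with duplicate 2 alone, -0.044 thinned, -0.016 with donor sums, and -0.060 to 0.14 when 1 culture was left out (-0.060 without Col287-1). The difference with the *Braf* allele was 0.16 for *Mycl* with duplicate 2 alone, and for *Mlx* -0.056 without duplicate 1 of both PAC donors and -0.028 to 0.13 when 1 culture was left out (-0.028 without Col313-1). The 4-HT level of *Mxd1* with the *Braf* allele was -0.13 with duplicate 1 alone.

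Over all genes, calls in AC were 406 up and 574 down, compared with 730 and 881 by DESeq2, 1007 and 1216 with the replicate block, 37 and 214 with that genotype alone, 262 and 633 with duplicate 1 alone, 0 and 13 with duplicate 2 alone, 196 and 480 with donor sums, 0 and 9 without Col288-1 and 3 and 21 without Col288-2. In PAC 1511 and 1655 became 2234 and 2483 with the block, 936 and 1110 with that genotype alone, 2 and 5 with duplicate 2 alone, 828 and 891 without Col290-1, 691 and 731 without Col313-1 and 22 and 26 without both. Duplicate 2 alone gave 1432 and 1415 in BAC and 1455 and 1544 in BPAC. For the *Braf* difference 413 and 480 became 752 and 697 by DESeq2, 880 and 1011 with the block, 272 and 514 with library size alone, 295 and 220 with donor sums, 209 and 316 with duplicate 1 alone, 11 and 21 with duplicate 2 alone, 106 and 157 without Col288-1, 161 and 186 without Col288-2 and 270 and 320 without Col286-1. For the 4-HT level 2104 and 1980 became 518 and 625 with duplicate 2 alone and 1361 and 1398 without Col288-2. For the EtOH level 3 and 1 became 32 and 31 by DESeq2. The replicate block changed the calls of *Mlx* in AC, *Mxi1* and *Mlxipl* in PAC, *Mlxipl* for the *Braf* allele and the list counts given above, and no other call of a member. With counts thinned to the smallest total, 1 call of a member was lost, that of *Mxd1* in AC (adjusted p = 0.0106).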

Other observations

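Markers of secretory and tuft cell types, listed for these organoids, were counted in the same way. Of 7 goblet cell genes, 3 fell and 2 rose in BAC and in BPAC, where 21.5% and 23% of all genes fell and 20.3% and 22% rose. In BPAC *Fcgbp* (-1.68) was among those that fell, and *Spdef* (1.66) and *Agr2* (1.30) rose. In PAC 1 of the 7 rose, where 11.2% of all genes did (0 without duplicate 1 of both PAC donors), and with the replicate block 2 rose and 3 fell (16.5% and 18.4% of all genes). In AC none passed in edgeR or DESeq2 (1 at an unadjusted p below 0.05), while 2 fell with the replicate block. Of 3 Paneth cell genes, 2 rose in PAC (0 without duplicate 1 of both PAC donors), 1 in BAC and 2 in BPAC. The shares of all genes that rose there were 11.2%, 20.3% and 22%. Among these Paneth cell genes were *Lyz1* (3.11 in PAC and 2.10 in BPAC) and *Mmp7* (2.00 and 1.36). Of 4 tuft cell genes, 2 fell in BAC and 1 in BPAC, the latter *Dclk1* (-1.52), where 21.5% and 23% of all genes fell. The BPAC count was near the share of all genes, and the tuft cell genes were low, with a summed level of 6.53 to 30.0 CPM over all samples. Without the block, none of 4 enteroendocrine genes passed in edgeR or DESeq2, with 0 (PAC) to 2 (BAC and BPAC) at an unadjusted p below 0.05, and with it 2 fell in BAC and 2 in BPAC. Of the markers of cells outside the epithelium, 2 of 5 immune genes were in the table and neither passed without the block (1 rose in AC with it). Of 2 endothelial genes, *Cdh5* was not in the table. *Pecam1* fell by 1.68 in BAC and by 1.79 in BPAC, but at very low levels. Its means were 1.39 and 1.47 CPM with EtOH and 0.44 CPM in both genotypes with 4-HT. The part of these markers in the changes of the MYC network genes was not tested.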
